A study of Mus musculus with 4 samples.

Results

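Macrophages and monocytes of the distal sciatic nerve were examined 3 days post-injury (DPI) in the single-cell transcriptomes of a Drop-seq library. They were chosen by their counts of unique molecular identifiers (UMIs), the tags that mark single mRNA molecules. A cell barcode was kept with at least 200 genes and at most 10% mitochondrial UMIs, and was selected when it held at least 4 UMIs in sum of Csf1r, Fcgr1, Ly86, Ms4a6c, Ms4a7, Cd68, Tyrobp and Fcer1g, and no UMI of Pdgfra, Pecam1, Sox10, Trbc2, Nkg7 or Retnlg. This gave 273 of the 2281 barcodes kept at 3 DPI (12.0%, 95% interval 10.7 to 13.4, exact Clopper-Pearson), and of 12268 kept in all 4 libraries. The same rule selected 74 of 2306 barcodes from neonatal nerve sorted by FACS, 12 of 5736 from neonatal nerve cleared with myelin removal beads, and 14 of 1945 from uninjured adult nerve.

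All animals were wildtype CD1 mice. Injured adults had 1 sciatic nerve resected and received ketoprofen or meloxicam with buprenorphine, and the distal segment was collected after 3 days, so these barcodes came from nerve whose cut axons were degenerating. The uninjured nerve was adult and was processed through myelin removal beads like the injured nerve. The neonatal FACS library came from postnatal day (P) 3 to P4 and held sorted Hoechst-high, propidium iodide-negative cells, and the neonatal bead library came from P2 to P3. The sources used here do not give the number of animals in a library, and each group is 1 library. Age, injury and isolation cannot be told apart between groups, no test was made, and all intervals cover counting error only.

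Monocytes leave the blood through the chemokine receptor Ccr2 and mature into macrophages inside an injured nerve, where they clear myelin and axon debris together with the macrophages that were already resident. Resident macrophages of many tissues carry the mannose receptor Mrc1 and make complement C1q, while cells digesting lipid-rich debris are known for Gpnmb, Spp1, Fabp5 and lysosomal cathepsins. Inflammatory monocytes and macrophages release Il1b and neutrophil-attracting CXC chemokines, and Arg1 is widely used as a marker of alternative activation. Levels below are given as CPM (counts per 1000000), which are the UMIs of a gene summed over the selected barcodes and divided by all their UMIs. Drop-seq reads the 3' ends of mRNAs, so CPM here is not scaled by gene length.

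The selected 3 DPI barcodes held 409421 UMIs, with a median of 1237 UMIs and 755 genes per barcode, against medians of 2183 UMIs in the other 3 DPI barcodes and 2208 UMIs in the selected neonatal FACS barcodes. Of 297 barcodes that reached the sum of 4, 24 were removed because they held a UMI of an excluded gene, most often Pdgfra (9), Pecam1 (8) and Nkg7 (8). The 40 barcodes just inside the threshold, with a sum of 4, had a median of 826 UMIs, and the 43 just outside it, with a sum of 3 and no excluded gene, had a median of 759. Lyz2, a lysozyme of macrophages and neutrophils, was found in 90% of the first and 76.7% of the second. No selected barcode sequence recurred in another library, where 0 to 3 barcodes were shared between any pair.

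**Figure D1:**
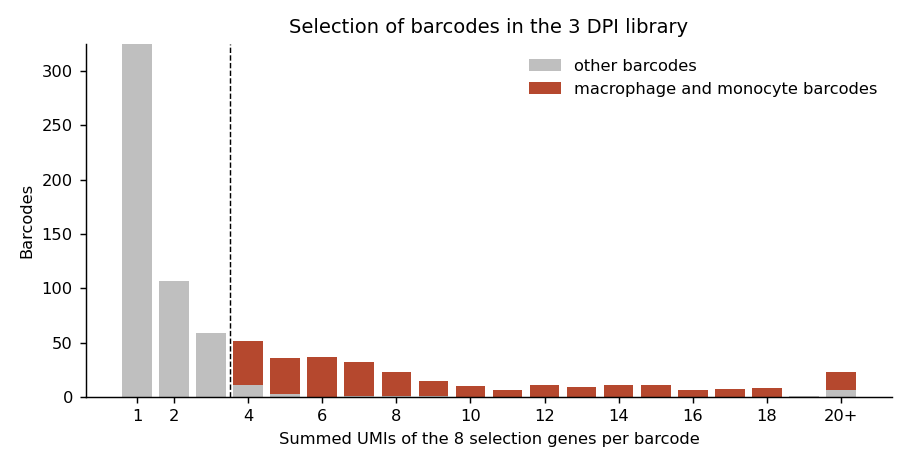
Number of kept 3 DPI barcodes (y axis) by their summed UMIs of the 8 selection genes (x axis, 20+ pools the highest sums), with selected barcodes in red and others in grey. The dashed line is the threshold of 4 UMIs, and the 1493 barcodes with a sum of 0 are not drawn.

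The label was checked against marker genes. Tyrobp, a signalling adaptor of myeloid and NK cells, was found in 89.0% of the selected barcodes, Fcer1g in 84.6%, Ms4a6c in 48.7%, Cd68 in 44.7%, Ly86 in 40.3%, Csf1r, the receptor for the macrophage growth factor CSF1, in 37.4%, Ms4a7 in 28.6% and Fcgr1 in 18.3%. These genes were used to select the barcodes and are a description of them. Markers outside the rule are given with each group of genes that follows, and a few barcodes stood apart. Of the 273, 7 held between 6 and 414 UMIs of the mast cell genes Cpa3, Mcpt4, Cma1 and Tpsb2, while no other selected barcode held more than 1. A further 8 held at least 5 UMIs of S100a8 and S100a9, which are abundant in neutrophils and also made by monocytes, with up to 70 in a barcode, and 1 held 72 UMIs of B cell genes. Mast cell markers took 4611 CPM in sum, and levels that the 15 mast or S100 barcodes move by over 1.5 times are given with and without them. Of 14 T and NK cell genes, 4 were at 0 and the list summed to 429.9 CPM, most of it Ccl5 and Il7r.

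Markers of other nerve cells were found in these droplets, and the parts of free RNA, doublets and engulfed material were not tested. All 10 mesenchymal markers were found in at least 2% of the selected barcodes, and their summed level was 3769 CPM, against 39592 CPM in the other 3 DPI barcodes and 1633 CPM in the selected neonatal FACS barcodes. Col3a1, a fibroblast collagen, was found in 61.2% of them at 857 CPM (770.0 to 952). The 10 Schwann cell markers summed to 242 CPM at 3 DPI and 4585 CPM in the FACS barcodes, and the 10 endothelial markers to 296 and 101 CPM. As a background for shares, the 688 Pdgfra-positive 3 DPI barcodes, which are mesenchymal and should lack myeloid genes, are set beside the selected ones. Their median depth was 4934.5 UMIs, so their shares are also given with every barcode thinned to 500 UMIs, which left out 16 selected, 9 Pdgfra-positive and 2 neonatal FACS barcodes.

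Against the other 2008 barcodes of the 3 DPI library, the selected barcodes carried the genes of phagocytes and antigen presentation. Of 3988 genes with a mean of at least 50 CPM and at least 10 UMIs, 17.5% were at least 2-fold higher and 17.9% at least 2-fold lower in the selected barcodes. The barcodes had been selected on counts of this same library, so this comparison describes them and nothing was read from the counts. The myeloid list outside the rule had 20 genes, all found in at least 2% of barcodes, and 19 of them were at least 2-fold higher. The median ratio of the list was 28.3, against 0.967 over all genes tested. Lyz2 stood at 14628 CPM (14259.8 to 15003) and was found in 90.1% of selected barcodes, but Lyz2 was also found in 51.3% of Pdgfra-positive barcodes. At 500 UMIs per barcode these shares were 86.8% and 8.69%.

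Among the 25 leading genes outside the rule were Ctss, Ccr2, C3ar1, F13a1, Cd74, Clec4a2, Clec4a3, Mrc1, C1qa, C1qc, Trem2, Aif1, Fcgr3, F7, Apoc2 and Ccl6, together with the mast cell genes Tpsb2, Cpa3, Tpsab1 and Mcpt4, whose UMIs came from a few barcodes. Ctss, the lysosomal protease that trims the invariant chain of MHC class II, was found in 87.2% of selected and 15.4% of Pdgfra-positive barcodes, at 4985 CPM (4771 to 5206) against 94.6 CPM in the other barcodes. Ccr2 was found in 49.8% and 3.92% (1605 against 35.6 CPM). It was not particular to the selected barcodes, since 46.6% of the 58 barcodes with Nkg7 or Trbc2 also held it, at 830 CPM. Aif1, which encodes the macrophage protein Iba1, was found in 36.3% of selected and 4.22% of Pdgfra-positive barcodes (437 against 10.4 CPM). C3ar1, the receptor for complement C3a, had 420.1 against 7.65 CPM, and the lectin receptor Mrc1 had 415 against 9.63 CPM. Spp1 and Fn1, secreted products of many cells in the injured nerve, were not 2-fold higher in the selected barcodes, with 4423 against 3056 CPM of Spp1 and 2943 against 3526 CPM of Fn1.

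The RefSeq promoter window of Ctss (GRCm38.p6, chr3:95526536-95526835, plus strand, from 250 bases before to 50 after the transcription start) is shown because it carries the letters GAGGAAGT, a purine-rich core that the myeloid factor PU.1 is known to bind. The match is in capitals, and both strands were searched.
Ctss: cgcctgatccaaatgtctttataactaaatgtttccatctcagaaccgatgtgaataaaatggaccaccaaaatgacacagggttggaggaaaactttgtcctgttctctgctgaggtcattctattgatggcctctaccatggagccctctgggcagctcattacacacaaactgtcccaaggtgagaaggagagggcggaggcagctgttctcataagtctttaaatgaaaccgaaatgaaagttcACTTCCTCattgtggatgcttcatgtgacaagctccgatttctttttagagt
The same letters were found in 3.20% of all 32851 promoter windows of that length and in 5.87% of the 341 windows of the listed genes, which covered 277 of 364 symbols. Spi1, the gene of PU.1, had 288 CPM (239 to 345) in the selected barcodes and 7.78 CPM in the others.

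The comparison with the neonatal FACS library, the only other library with more than 14 selected barcodes, sets the phagocytes of the injured adult nerve beside those of growing nerve. Against these neonatal barcodes, monocyte genes, MHC class II, inflammatory cytokines and a set of lipid and lysosome genes were higher at 3 DPI, while resident-macrophage genes, C1q, iron-handling genes and cell cycle genes were lower. Of 3848 genes that passed the same filter, 12.9% were at least 2-fold higher and 13.5% at least 2-fold lower at 3 DPI. These were 498 and 518 genes. With median-of-ratios size factors in place of total UMIs, the size factor of the 3 DPI barcodes relative to the neonatal ones was -0.21 on the log2 scale from that of total UMIs, which raises every ratio by that amount, and the split of the calls was 628 higher and 384 lower.

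The few uninjured barcodes did not give the same order. Of the 14, 8 were mast or S100 barcodes, and all 14 had summed levels of 19726 CPM of the antigen presentation list, 4447 CPM of the monocyte list, 528 CPM of the complement list, 6693 CPM of the iron list and 308 CPM of the cell cycle list, against 20289.6, 10998, 3187, 13065 and 432 CPM at 3 DPI. Without mast or S100 barcodes in either group, the 6 uninjured barcodes left were above 3 DPI in antigen presentation (50183 against 21182 CPM) and resident-macrophage genes (16269.5 against 5969.6 CPM). They were close in monocyte genes (10884 against 11379 CPM) and below 3 DPI in complement (1146 against 3255 CPM), iron (6989 against 13339 CPM), lipid and lysosome (8708 against 60174 CPM) and inflammatory genes (917 against 4319 CPM). They held no cell cycle UMI. Their resident-macrophage sum was 142 UMIs over 6 barcodes. The whole complement list, C1q genes included, had 10 UMIs in them, so most of the resident-macrophage sum lay outside C1q.

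**Figure D2:**
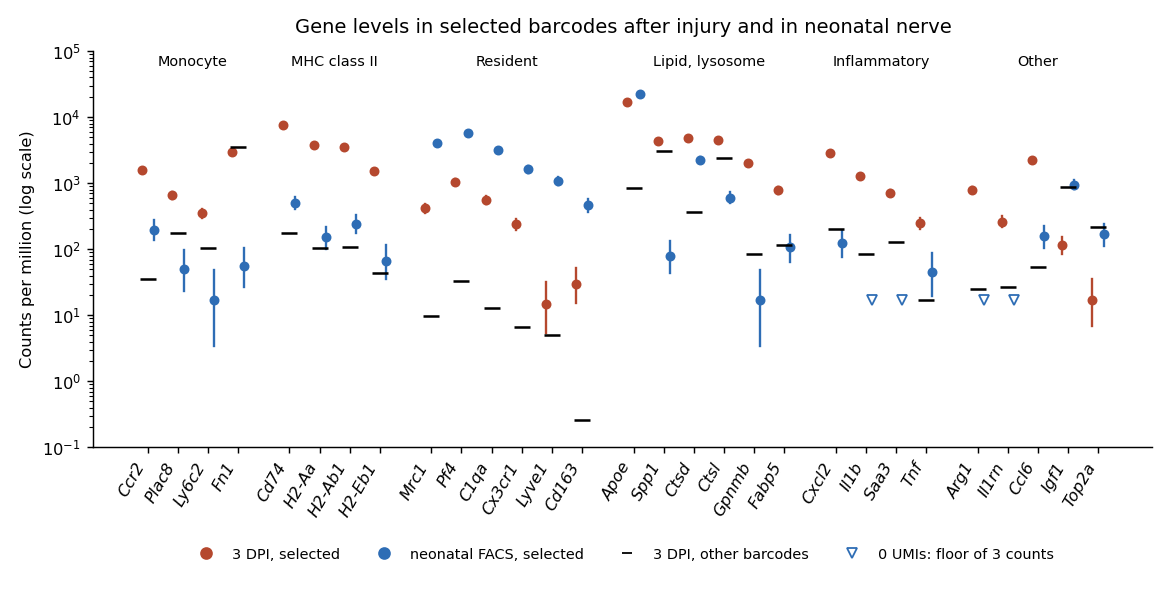
CPM (log scale, y axis) of named genes in the 273 selected 3 DPI barcodes (red), the 74 selected neonatal FACS barcodes (blue) and the other 3 DPI barcodes (black dashes), with exact Poisson 95% intervals as vertical lines. Open triangles mark the floor of 3 counts (16.9 CPM) for neonatal genes with 0 UMIs, and the monocyte and MHC class II genes drawn sit higher in red while Mrc1, Pf4, C1qa, Cx3cr1, Lyve1 and Cd163 sit higher in blue.

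Of the 16 monocyte genes, 10 passed the filter, with 8 at least 2-fold higher and 1 lower at 3 DPI, and a median ratio of 13 against 0.935 over all genes tested. Ccr2 stood at 1605 CPM (1484 to 1732) at 3 DPI and 197 CPM (137 to 274) in the neonate, a ratio of 8.14 (5.79 to 11.8). Thinned to 500 UMIs, Ccr2 was found in 40.5% of the 3 DPI, 5.56% of the neonatal FACS and 0.589% of the Pdgfra-positive barcodes. Plac8, a gene of classical monocytes, had 662 against 50.7 CPM (ratio 13.1, 6.78 to 28.9), and the calcium-binding S100a4 had 1314 against 101 CPM. Ly6c2, the classical monocyte antigen, had 349 CPM from 36 of 273 barcodes against 3 UMIs in the neonate (ratio 20.7, 6.93 to 101). Its share of 13.2% lay below the 30.4% of the deeper Pdgfra-positive barcodes, and at 500 UMIs the shares were 8.95% and 5.01%, so no expression was read from its share, and its level in the other 3 DPI barcodes was 104 CPM. F13a1, the transglutaminase subunit of coagulation factor XIII, went the other way, with 415 against 1369 CPM, a neonatal excess of 3.30-fold (2.70 to 4.03). Of 10 genes listed for nonclassical monocytes, 3 passed the filter, with 2 at least 2-fold higher and 0 lower at 3 DPI (median ratio 3.83). The list was uneven over the 273 barcodes. Nr4a1 had 150 UMIs in 74 barcodes and Cebpb 524 UMIs in 170. Treml4, Ace, Ear2, Cd300e, Spn, Pglyrp1, Eno3 and Itgal had 1 to 16 UMIs each.

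MHC class II genes were higher at 3 DPI than in the neonatal FACS barcodes, but not than in the 6 uninjured barcodes left without mast or S100 barcodes, where Cd74 stood at 15582 CPM (13073 to 18432). The antigen presentation list was also not higher than in the 6 neonatal bead barcodes left. It summed to 21182 CPM at 3 DPI and 64467.5 CPM (428 UMIs) in those bead barcodes. Against the FACS barcodes, 7 of the 20 genes of antigen presentation and dendritic cells passed the filter. Of these, 6 were at least 2-fold higher and none 2-fold lower, with a median ratio of 14.4. Cd74, the invariant chain, stood at 7528 CPM (7264 to 7798) against 501 CPM (403 to 617) in the neonate, a ratio of 15.0 (12.2 to 18.8). The ratios were 24.6 for H2-Aa, 14.4 for H2-Ab1 and 22.8 for H2-Eb1, the chains that present peptides, and 4.91 for H2-DMa and 11.8 for H2-DMb1, which load them. Cd74 was found in 59.7% of 3 DPI barcodes and H2-Aa in 49.8%, against 20.3% and 12.6% of Pdgfra-positive barcodes. Of the 20 genes, 13 were found in at least 2% of the selected barcodes. Several genes that define dendritic cells were at or near 0, with no UMI of Xcr1 or Clec9a, 5 of the growth factor receptor Flt3, 4 of Zbtb46 and 1 of Ccr7. A count of 0 in 273 barcodes allows a share of up to 1.10% of barcodes with a UMI, which at these depths is no limit on cells that express the gene. Cd209a, a lectin of monocyte-derived dendritic cells, had 30 UMIs in 12 barcodes, and Itgax, also on the list, had 29 UMIs in 15.

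Resident-macrophage genes were lower at 3 DPI than in the neonatal FACS barcodes. Of 22 listed genes, 18 passed the filter, with 14 at least 2-fold lower and 2 higher, and a median ratio of 0.174. Mrc1 stood at 415 CPM (355 to 483) at 3 DPI and 4027 CPM (3737 to 4333) in the neonate, so the neonatal level was 9.70-fold higher (8.19 to 11.5). The neonatal excess was 6.75-fold for the fractalkine receptor Cx3cr1, 5.45-fold for the chemokine Pf4, 5.88-fold for the transcription factor Maf, 9.36-fold for the scavenger receptor Stab1 and 12.1-fold for Gas6, a bridge to dying cells. Lyve1, a hyaluronan receptor, had 6 UMIs in 2 of 273 barcodes, against 192 UMIs in 29 of 74 neonatal barcodes (14.7 against 1081 CPM). The hemoglobin scavenger receptor Cd163 had 29.3 against 462 CPM. Among the genes that were higher was Retnla, whose 45 UMIs lay in 5 barcodes. The neonatal bead barcodes did not share the FACS level. Without mast or S100 barcodes the list summed to 5970 CPM at 3 DPI and 29547 CPM in the FACS barcodes. In the 6 neonatal bead barcodes left it summed to 5724 CPM (38 UMIs).

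Several complement and iron-handling genes were also lower than in the neonatal FACS barcodes, and these lists share C1q genes and Cd163 with the resident list. Of 11 complement genes, 8 passed the filter, with 4 at least 2-fold lower and 1 higher, and a median ratio of 0.607. C1qa, C1qb and C1qc, which together form the recognition protein C1q, stood at 559, 579 and 439.6 CPM at 3 DPI and at 3177, 2732 and 2546 CPM in the neonate, neonatal excesses of 5.68, 4.72 and 5.79-fold. C3, the central complement protein, had 191 CPM against 0 neonatal UMIs, but the other 3 DPI barcodes held 628 CPM. The receptors C3ar1 and C5ar1 differed little, at 420.1 against 535 CPM and 298 against 293 CPM, with ratios of 0.785 (0.608 to 1.02) and 1.02 (0.730 to 1.44). Of 12 iron genes, 10 passed the filter and 7 were at least 2-fold lower at 3 DPI, with none 2-fold higher and a median ratio of 0.273. Slc40a1, the iron exporter ferroportin, had 9.77 against 766 CPM, Hmox1, the enzyme that breaks down heme, 342 against 1059 CPM, and the biliverdin reductase Blvrb 85.5 against 659 CPM. Fth1, the ferritin heavy chain, was high in both, at 11804 and 10606 CPM. Without mast or S100 barcodes, the 6 neonatal bead barcodes left had 5121 CPM of the iron list (34 UMIs), below 13339 CPM at 3 DPI. Their complement sum was 4217.5 CPM (28 UMIs), against 3255 CPM at 3 DPI.

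Genes of lipid uptake and lysosomes were divided. Of 31 listed genes, 28 passed the filter, with 11 at least 2-fold higher and 1 lower at 3 DPI, and a median ratio of 1.64. Gpnmb, a membrane glycoprotein of lysosome-rich phagocytes, stood at 2010.2 CPM (1875 to 2152) at 3 DPI against 3 UMIs in the neonate, a ratio of 119 (40.6 to 578). The ratio was 7.28 (4.59 to 12.3) for the fatty acid binding protein Fabp5, 7.59 (6.25 to 9.32) for cathepsin L, 4.37 (3.74 to 5.14) for prosaposin, 3.49 (2.61 to 4.76) for the lipid droplet protein Plin2, and 2.17 (1.95 to 2.42) for cathepsin D. The cholesterol exporter Abcg1 had 244 against 3 neonatal UMIs (16.9 CPM). Spp1, osteopontin, had 4423 against 78.9 CPM, but its level in the other 3 DPI barcodes was 3056 CPM, and how much of it was free RNA was not tested. Apoe, the lipid carrier, stood at 17188 CPM (16788 to 17594) at 3 DPI and 22451 CPM (21759 to 23159) in the neonate. The lipid receptor Trem2 had 508 and 518 CPM, a ratio of 0.980 (0.763 to 1.27), and the scavenger receptor Cd36 was higher in the neonate, at 1729 against 381 CPM.

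The promoter window of Ctsd (GRCm38.p6, chr7:142387778-142388077, minus strand) is shown because the letters TCACGTG, the core of the element that the lysosome regulators TFEB and MITF are known to bind, occur in it 3 times counting both strands, with overlapping matches counted separately. The matches are in capitals.
Ctsd: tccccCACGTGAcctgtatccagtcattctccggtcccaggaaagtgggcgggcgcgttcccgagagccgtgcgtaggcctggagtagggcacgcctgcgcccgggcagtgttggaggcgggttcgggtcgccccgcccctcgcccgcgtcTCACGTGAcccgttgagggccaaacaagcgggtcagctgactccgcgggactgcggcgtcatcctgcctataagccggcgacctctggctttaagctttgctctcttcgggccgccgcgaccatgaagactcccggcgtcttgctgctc
These letters were found in 3.77% of all promoter windows and in 4.69% of those of listed genes. Among them were Lamp1, Lgmn and Plin2, and also genes outside the lipid and lysosome list such as Batf3, Xcr1, Tyms and Hif1a.

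Inflammatory genes were present at 3 DPI and largely missing from the neonatal FACS barcodes. They were not missing from the neonatal bead barcodes, where the list summed to 5315 CPM, against 5317 CPM at 3 DPI. Without mast or S100 barcodes these sums were 2259 CPM (15 UMIs) and 4319 CPM. Against the FACS barcodes, 10 of 20 listed genes passed the filter, with 9 at least 2-fold higher and 1 lower at 3 DPI, and a median ratio of 12.2. Il1b, the cytokine interleukin-1β, had 528 UMIs in 65 of 273 barcodes (23.8%, 18.9 to 29.3) and a level of 1289.6 CPM, against 0 UMIs in 74 neonatal barcodes. With the neonate set to 3 counts over the group the ratio was 76.3, which is a point value and not a lower bound. Il1b was not particular to the selected barcodes. The 13 3 DPI barcodes with Retnlg held it in 53.8%, at 1094 CPM, and it was found in 8.72% of the deeper Pdgfra-positive barcodes. Without the 15 mast or S100 barcodes the level of Il1b was 809 CPM, and the cytokine gene Tnf had 249 CPM with and 145 CPM without them, against 45.1 CPM in the neonate. Saa3, an acute phase protein, had 713 CPM, of which 62.3% lay in 5 of its 30 barcodes, and the neonate had no UMI. Clec4e, a receptor for damaged cells and microbes, had 366 CPM against 0 UMIs, and Nfkbia, the NF-kB inhibitor that NF-kB itself induces, had 1612 against 276 CPM (ratio 5.84, 4.37 to 7.98). Nos2 had 6 UMIs, Il6 had 4, and Il12b and Lcn2 had none in the 3 DPI barcodes.

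Genes linked to repair and alternative activation were found in the same library. Of 17, 13 passed the filter, with 7 at least 2-fold higher and 3 lower at 3 DPI, and a median ratio of 3.72. Arg1, which breaks down arginine, had 322 UMIs in 73 of 273 barcodes (26.7%, 21.6 to 32.4) and 786 CPM (703 to 877), against 0 UMIs in the neonate, a ratio of 46.5 with the neonate set to 3 counts. It was found in 6.98% of Pdgfra-positive barcodes, and in 20.2% and 1.33% at 500 UMIs. Il1rn, the antagonist of the IL-1 receptor, had 261 CPM and the macrophage elastase Mmp12 376 CPM, both with 0 neonatal UMIs. Igf1, a growth factor made by resident macrophages and by fibroblasts, was lower at 3 DPI, at 115 CPM (84.3 to 153) against 952 CPM (814 to 1107) in the neonate and 864 CPM in the other 3 DPI barcodes. Il10 had 4 UMIs and Pdcd1lg2 none.

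Of 13 CC chemokines, 9 passed the filter, with 5 at least 2-fold higher and 2 lower at 3 DPI (median ratio 2.07), and of 9 CXC chemokines, 5 passed, with 4 higher and 1 lower (median ratio 12.8). The CC chemokine Ccl6 stood at 2218 CPM (2076 to 2367) in 71.1% of barcodes, 14.1-fold (9.66 to 21.3) its neonatal level of 158 CPM, and Ccl9 had 830.4 against 299 CPM. Ccl12 and Ccl24, which attract monocytes and eosinophils, were higher in the neonate, at 805 against 46.4 CPM and 479 against 161 CPM. Ccl2, the main Ccr2 ligand, had 523 CPM at 3 DPI and 910.4 CPM in the other 3 DPI barcodes. Of the CXC chemokines, Cxcl2, which attracts neutrophils, had 2897 CPM (2734 to 3066) in 42.9% of barcodes against 124 CPM (77.7 to 188) in the neonate, a ratio of 23.4 (15.4 to 37.4), and 2172 CPM without the 15 mast or S100 barcodes. The 13 3 DPI barcodes with Retnlg held Cxcl2 in 69.2%, at 1726 CPM, and the deeper Pdgfra-positive barcodes in 25.3%, at 102 CPM. Cxcl3 had 239 CPM and no neonatal UMI. Of 12 chemokine receptors, 8 passed, with 4 higher and 2 lower (median ratio 2.12). Cxcr4 was higher at 3 DPI, at 288 against 28.2 CPM, and Ccr1 was higher in the neonate, at 608 against 203 CPM.

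The promoter window of Cxcl2 (GRCm38.p6, chr5:90903649-90903948, plus strand) is shown because the letters GGNNTTTCC, a core of the site that NF-kB is known to bind, occur in it 2 times. The matches are in capitals.
Cxcl2: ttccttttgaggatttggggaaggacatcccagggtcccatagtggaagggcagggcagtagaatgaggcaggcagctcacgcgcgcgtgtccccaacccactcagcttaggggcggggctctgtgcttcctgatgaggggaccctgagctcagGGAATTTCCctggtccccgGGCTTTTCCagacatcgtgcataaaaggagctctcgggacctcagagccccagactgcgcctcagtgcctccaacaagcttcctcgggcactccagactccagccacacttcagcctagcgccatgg
They were found in 5.82% of all promoter windows and in 12.9% of those of listed genes, among them Cxcl1, Cxcl3, Nfkbia, Tnfaip3 and Il1rn.

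The study asked which nerve cells supply ligands to axons, and 17 of 38 listed growth factor and cytokine ligands were found in at least 2% of the selected 3 DPI barcodes. All 10 mesenchymal and 4 of 10 endothelial markers also passed this threshold, so passing it does not show that the selected cells make a ligand. Against the neonatal FACS barcodes 13 of the 38 ligands passed the filter, with 7 at least 2-fold higher and 3 lower (median ratio 3.10). Osm, oncostatin M, had 169 CPM in 40 of 273 barcodes (14.7%, 10.7 to 19.4), against 7.92 CPM in the other 3 DPI barcodes, 2.91% of the Pdgfra-positive barcodes and 1 UMI in the neonate. Vegfa, the vascular growth factor, had 171 CPM against 95.3 CPM in the other barcodes and 1 neonatal UMI. Metrnl, a secreted protein, had 361 against 78.9 CPM in the neonate, the TNF family ligand Tnfsf12 122 against 39.4 CPM, the semaphorin Sema4d 151 against 45.1 CPM, and Pdgfa 87.9 CPM against 1 UMI. Tgfb1 had 125 and 118 CPM, a ratio of 1.05 (0.622 to 1.84). The neurotrophin Bdnf had no UMI, which allows a level of up to 7.33 CPM by a floor of 3 counts.

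Of 40 cytokine, growth factor and pattern receptors found in the files, 32 passed the filter, with 9 at least 2-fold higher at 3 DPI and none lower by 2-fold, and the median ratio was 1.10. Csf1r, a gene of the rule and so only described, stood at 398 CPM (339 to 464) against 1515 CPM (1339 to 1707). Csf2rb, a chain of the receptors for GM-CSF and IL-3, had 215 against 62.0 CPM (ratio 3.47, 1.85 to 7.20), the integrin chain Itgb2 418 against 101 CPM, Cd44 574 against 237 CPM and the urokinase receptor Plaur 129 CPM against 2 UMIs. The interferon-γ receptor chain Ifngr1, the Il10ra chain and Tlr2 had ratios of 1.03 (0.759 to 1.41), 0.999 (0.602 to 1.71) and 0.976 (0.616 to 1.58).

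Of 26 transcription factors, 22 passed the filter, with 14 at least 2-fold higher and 2 lower at 3 DPI and a median ratio of 3.06. Cebpb, a factor of inflammatory macrophages, stood at 1279.9 against 186 CPM (ratio 6.89, 4.84 to 10.1), and Cebpa at 286 against 39.4 CPM. The immediate early gene Fos had 3378 against 698 CPM and Junb 1382 against 237 CPM, genes that tissue dissociation is also known to induce, and the part of dissociation in their levels was not tested. Hif1a had 286 against 90.1 CPM, and of 18 glycolysis and hypoxia genes 12 passed the filter, with 7 at least 2-fold higher at 3 DPI (median ratio 2.18), such as Ldha at 554 against 265 CPM and Pkm at 576 against 253 CPM. Of 20 interferon-induced genes, 8 passed, with 3 at least 2-fold higher (median ratio 1.87), and Ifitm3 had 1658 against 90.1 CPM but 1511 CPM in the other 3 DPI barcodes. Of 20 matrix and protease genes, 14 passed, with 9 at least 2-fold higher and 1 lower (median ratio 6.14). Fibronectin, Fn1, had 2943 against 56.3 CPM, beside 3526 CPM in the other 3 DPI barcodes, and the sheddase Adam8 had 239 against 33.8 CPM and 13.7 CPM in the others.

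Cell cycle genes were lower at 3 DPI than in the neonatal FACS barcodes. Of 19 genes, 9 passed the filter and all 9 were at least 2-fold lower at 3 DPI than in the neonatal barcodes, with a median ratio of 0.217. The list took 432 CPM at 3 DPI, 2056 CPM in the neonate, 1506 CPM in the other 3 DPI barcodes and 308 CPM in the 14 uninjured barcodes. Mki67, the gene of Ki67, had 7 UMIs in 7 of 273 barcodes (17.1 CPM) against 50 UMIs in 14 of 74 neonatal barcodes (282 CPM). Top2a had 7 UMIs (17.1 CPM) against 30 (169 CPM). At 500 UMIs per barcode, Mki67 was found in 1.17% and 9.72%, and Top2a in 0.778% and 8.33%.

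**Figure D3:**
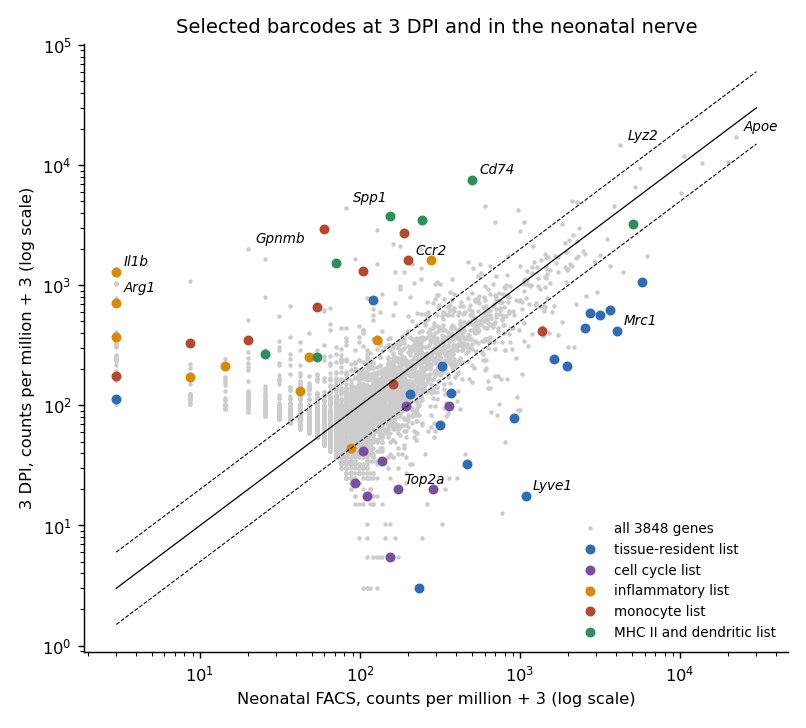
CPM + 3 of 3848 genes (log scales) in the 273 selected 3 DPI barcodes (y axis) against the 74 selected neonatal FACS barcodes (x axis), with 5 gene lists in colour. The solid line marks equal levels and the dashed lines 2-fold differences, and the tissue-resident and cell cycle lists lie mostly below the lines while the monocyte and inflammatory lists lie mostly above.

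The remaining libraries gave few phagocytes. Of the 14 uninjured barcodes that met the rule, 7 held 217 to 511 UMIs of the mast cell genes and 1 more held 92 UMIs of S100a8 and S100a9, and of the 12 neonatal bead barcodes, 4 held 302 to 580 mast cell UMIs and 2 held 37 and 1167 UMIs of S100a8 and S100a9. Against all neonatal bead barcodes of the rule, 16.8% of 3577 genes were at least 2-fold higher and 24.6% at least 2-fold lower at 3 DPI, and against all uninjured ones 15.4% of 3620 were higher and 25.5% lower. The size factors shifted these ratios by more than those of the FACS barcodes, with -0.58 and -0.53 on the log2 scale, and with them the splits turned, to 1181 higher and 486 lower instead of 600 and 881 for the bead barcodes, and to 1134 higher and 456 lower instead of 556 and 924 for the uninjured ones. Among the genes with the largest ratios that kept their direction against both neonatal libraries were Ctsd, Ctsl, Spp1, Fn1, Itgam, Mpeg1, Ccl9 and Lrp1, which were higher at 3 DPI, and Top2a, Mki67 and Ccnd1, which were lower.

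Without mast or S100 barcodes, 6 uninjured barcodes with 8728 UMIs and 6 neonatal bead barcodes with 6639 UMIs remained. The 6 uninjured barcodes held 74 UMIs of Lyz2 (8478 CPM, 6657 to 10644), 136 of Cd74 (15582 CPM, 13073 to 18432) and 18 of Ccr2 (2062 CPM, 1222 to 3259), and no UMI of Gpnmb, Spp1, Il1b, Arg1 or Cxcl2. The floor of 3 counts over this group was 344 CPM. The 3 DPI levels of Gpnmb, Spp1, Il1b and Cxcl2 without mast or S100 barcodes, 2105, 4598, 809 and 2172 CPM, lay above this floor, as did that of Arg1, 827 CPM. With 6 barcodes a 0 does not bound the level of a gene that only some barcodes hold. Il1b and Arg1 were found in 65 and 73 of the 273 barcodes at 3 DPI, so no difference was read from these zeros. The 6 neonatal bead barcodes held 12 UMIs of C1qa (1808 CPM, 934 to 3157) and 92 of Cd74, the latter in 2 barcodes.

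The selected 3 DPI barcodes were not uniform. Clustering of the 273 barcodes alone gave 3 sub-clusters, which are described by the genes that formed them and were not tested. Cluster 0 had 160 barcodes (58.6%, 52.5 to 64.5) with a median of 1084.5 UMIs, cluster 1 had 61 (22.3%) with a median of 2384 UMIs, and cluster 2 had 52 (19.0%) with a median of 1096 UMIs. Of the 7 mast barcodes 6 were in cluster 0 and 1 was in cluster 1, and all 8 S100 barcodes were in cluster 2. The number of clusters depended on the settings, with 5 at a resolution of 0.8 instead of 0.4 and 2 with 20 instead of 10 principal components.

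Cluster 0 was led by the genes of its mast barcodes, Mcpt4, Cpa3, Tpsb2, Cma1 and Tpsab1. Without the mast, S100 and B cell barcodes it was led by Slamf9, Tmem176b, Tmem176a, Retnla and Clec4b1, chosen after their values were seen, and Ccr2 and Cd74 were also higher in it than in the other two. Ccr2 was found in 120 of its 160 barcodes (75%, 67.6 to 81.5), against 5 of 61 in cluster 1 and 11 of 52 in cluster 2. Cd74 stood at 13621, 1661 and 1711 CPM in clusters 0, 1 and 2, H2-Aa at 6711, 1013 and 592 CPM, and Mrc1 at 658, 229.6 and 65.8 CPM. Csf1r, a gene of the rule, was found in 43.8%, 26.2% and 30.8% of their barcodes.

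Cluster 1 was led by Atp6v0d2, a subunit of the proton pump of lysosomes, Gpnmb, F7, Syngr1 and Fabp5. Gpnmb was found in 59 of its 61 barcodes, at 5335 CPM (4969 to 5720.4), against 115 and 165 CPM in clusters 0 and 2. Spp1 stood at 10258 CPM against 1102 and 1168 CPM, Ctsd at 11426 against 1052 and 1728 CPM, and Ctsl at 10656 against 917 and 1843 CPM. Plin2 was found in 96.7% of its barcodes and Trem2 in 77.0%. The 31 lipid and lysosome genes together took 109395 CPM in cluster 1, 29615 in cluster 0 and 27381 in cluster 2.

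Cluster 2 was led by S100a9, Slc7a11, a cystine transporter, Cxcl3, Irg1, which makes itaconate and is now called Acod1, and S100a8. Without its 8 S100 barcodes, which left 44, it was led by Slc7a11, Ppbp, Cxcl3, Irg1 and Fpr2, of which Ppbp and Fpr2 are named after their values were seen. Of these 44 barcodes, Ppbp was found in 3, Irg1 in 7, Slc7a11 in 8, Cxcl3 in 10 and Fpr2 in 17. Il1b was found in 34 of the 52 barcodes of cluster 2 (65.4%, 50.9 to 78.0) at 7059 CPM, against 444 and 67.5 CPM in clusters 0 and 1. Without mast or S100 barcodes it was found in 26 of 44 (59.1%) at 4071 CPM, against 466 and 69.6 CPM. Cxcl2 stood at 13888 CPM against 533 and 1587 CPM, Clec4e at 1975 against 94.7 and 74.3 CPM, and Saa3 at 4031 against 69.8 and 223 CPM. Without mast or S100 barcodes, cluster 2 had 9513 CPM of Cxcl2, 1636 of Clec4e and 4661 of Saa3. C1qa was found in 4 of its barcodes, against 46 of 160 and 21 of 61. Neutrophil markers took 4887 CPM in cluster 2 and 199 in cluster 0, and their part in the result was not tested. Arg1 was found in 36 of 61 barcodes of cluster 1 (59.0%, 45.7 to 71.4), in 23 of 52 of cluster 2 (44.2%, 30.5 to 58.7) and in 14 of 160 of cluster 0 (8.75%).

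**Figure D4:**
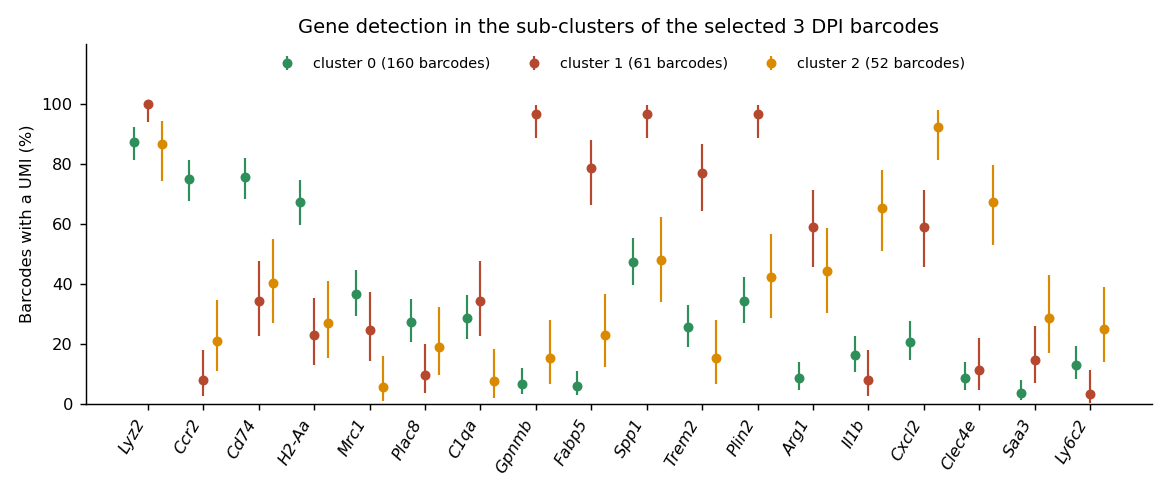
Percentage of barcodes with at least 1 UMI (y axis) of 18 genes in the 3 sub-clusters of the selected 3 DPI barcodes, with exact Clopper-Pearson 95% intervals. Ccr2 and Cd74 are found most often in cluster 0, Gpnmb, Fabp5 and Trem2 in cluster 1, and Il1b, Cxcl2 and Clec4e in cluster 2, and Lyz2 in over 80% of each.

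Pairs of genes were also counted in single barcodes, which does not depend on the clusters. Of 73 barcodes with Arg1, 40 also held Gpnmb (54.8%, 42.7 to 66.5), against 19% of the 200 without Arg1, and 21 held Il1b (28.8%, against 22%). Barcodes with Arg1 were deeper, with medians of 1546 and 1118.5 UMIs. Of 78 barcodes with Gpnmb, 6 held Il1b (7.69%, 2.88 to 16.0), against 30.3% of the 195 others, although barcodes with Gpnmb were the deeper ones (medians of 1752 and 1084 UMIs). Of 136 barcodes with Ccr2, 12 held Gpnmb (8.82%), against 48.2% of those without, and 55 held Mrc1 (40.4%), against 16.1%. Across the 273 barcodes of this 1 library, which differ in depth, the log-normalized level of C1qa was most like that of C1qb (Pearson's r = 0.699), C1qc (0.614) and the lysosomal protease Lgmn (0.302), and that of Ly6c2 most like Plac8 (0.392), Ly6e (0.375) and Saa3 (0.270). Counts this sparse depress correlations, and these are given as a description only.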

How the data were processed

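Nerve tissue was digested in collagenase with trypsin before capture of single cells by Drop-seq. The authors deposited 1 table of raw UMI counts per library, with genes in rows and cell barcodes in columns and no normalization. Per the submitters' processing notes the reads were processed with the Drop-seq Alignment Cookbook v1.2 on build mm10. The sources used here name neither aligner nor annotation, and 9 DPI libraries were not analysed here.

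The members, gene lists and named-gene rules were chosen with earlier results of these data known. The rule was applied to each library, with a gene that a table does not list taken as 0. Totals were 4513814 to 8123103 UMIs per library over all deposited barcodes. Summed counts were scaled to CPM, with exact Poisson 95% intervals on levels, exact Clopper-Pearson 95% intervals on shares and conditional exact intervals on ratios. A gene was compared with a mean of both CPMs of at least 50 and at least 10 UMIs in all, and called at 2-fold. A group at 0 was set to 3 counts over the group. Genes of the lists could be named, as could the 25 leading genes against the other barcodes (at least 200 CPM), the 10 largest ratios each way against both neonatal libraries, the 5 leading genes of each sub-cluster and the 3 genes most like Ly6c2 and C1qa. Of 451 list symbols, 443 matched the tables directly, 7 by an older symbol and 1 not at all.

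Barcodes were clustered with scran 1.30.0 size factors and Seurat 5.3.0 (R 4.3.3), using 1000 variable genes and 10 principal components at a resolution of 0.4. Possible doublets were scored with scrublet in scanpy 1.11.5 and kept, and leaving out the highest 5% of scores, which were 115 barcodes at 3 DPI and 6 of the 273, was an alternative. Tables were computed with Python 3.11.15, numpy 2.4.6, pandas 2.3.3 and scipy 1.17.1, and the calls were tested on simulated data. The simulated counts were independent Poisson draws per gene from the summed levels. They held no spread between barcodes or libraries, so they checked the arithmetic of the calls under counting error only. UMIs correct for PCR copies, but droplets of 1 library are not replicates. Alternatives varied the gene minimum, mitochondrial limit, marker sum, doublets, scaling, filter and depth. Some genes of the lists are not reported here by name, and they remain in the counts and medians of their lists.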

Additional observations from a re-analysis of the deposited data

How the results depend on the processing

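Each group was 1 library, so no value here has a replicate check. No paired analysis was possible because each group has 1 library. The share of selected barcodes, 12.0%, was 11.3 to 12.5% with at least 500 genes, at most 5% mitochondrial UMIs, without the highest scrublet scores, or without mast and S100 barcodes, and 5.79% with a marker sum of at least 8. The 1408 genes 2-fold apart from the other 3 DPI barcodes, 1481 from the neonatal bead, 1016 from the neonatal FACS and 1480 from the uninjured barcodes became 6016, 2720, 4144 and 2662 with no filter on low values, where more genes were compared. With every barcode thinned to 500 UMIs the bead and uninjured counts were 617 and 574, and with a marker sum of at least 8 the bead count was 985. The other counts, with equal weight to each barcode, size factors, and the alternatives above, stayed within 1.5 times. The alternative without mast and S100 barcodes was chosen after seeing the data, and under it the calls against the bead barcodes were 126 higher and 1208 lower, those against the uninjured ones 156 and 1243, and the FACS count was 1027. The 3 sub-clusters became 5 at a resolution of 0.8 and 2 with 20 principal components, and the causes of these differences were not tested.

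Levels of the 72 genes given with a CPM were computed under 7 alternatives, and most stayed within 1.5 times. Il1b, at 1290 CPM, was 826 CPM with at least 500 genes, 739 CPM with a marker sum of at least 8 and 809 CPM without mast and S100 barcodes. With a marker sum of at least 8, Clec4e was 180.1, Cxcl2 1839, Il1rn 126 and Tnf 161 CPM. Gpnmb was 1292 CPM with equal weight to each barcode, where Slc40a1 was 18.4 and Top2a 25.9 CPM. Thinned to 500 UMIs, Ccl12 was 70.0, Lyve1 23.3 and Plaur 195 CPM.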

Other observations

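At the finer resolution of 0.8, a group of 15 barcodes was led by Klrd1, H2-Ob, Klra17, Napsa and Cd209a, genes known from dendritic cells and from NK cells and named here after their values were seen. Its H2-Eb1 level was 8976 CPM, against 1029 CPM in the other selected barcodes. Klrd1 had 12 UMIs in 7 of the 15, and Cd209a had 15 UMIs in 6 of them, with another 15 UMIs in the rest. A group of 10 barcodes was led by Mx1, Ifit2, BC094916, Ifit3 and Ifi205, which interferon is known to induce. Isg15 had 26 UMIs in 6 of these 10 barcodes (1516 CPM) against 58.6 CPM in the others. Both groups formed no cluster of their own at the resolution used in the report, and their genes are those that formed them.

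Of the 273 selected 3 DPI barcodes, 67 held UMIs of Xist and none of the Y-linked genes, 23 of Y-linked genes alone, 4 of both and 179 of neither, beside 877, 245, 80 and 1079 of all 2281 kept barcodes. The hemoglobin gene Hba-a1 had 166 UMIs in 30 selected barcodes, and 136 of them lay in 1 barcode.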
